A study of Mus musculus with 2 samples.

Results

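Bloc1s6, Rabgef1, Arf5 and Chmp5 are 4 of the 32285 genes counted in these data, and each encodes a protein that works on membrane vesicles or endosomes. They were chosen by gene symbol because their levels had been seen to differ between the libraries, so the differences given here describe how the genes were picked and no test was made of them. The data are single-cell RNA counts from whole testes of mice lacking protamine 2 (Prm2 -/-, 1 library) and of heterozygous mice (Prm2 +/-, 1 library). Heterozygotes, which still carry 1 intact copy, stood in for controls, and no wild-type library was used. The labels give no strain, age or number of animals and do not say which part of Prm2 the allele lacks. Tubules were taken out of the tunica, washed to lower the number of Leydig cells and dissociated with enzymes, and, per the labels, 15000 cells of each genotype went into a 10x Genomics kit that reads the 3′ ends of polyadenylated RNA. With 1 library per genotype no p-value could be had and no replicate checks the differences, so each interval is a 95% interval for counting error alone.

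Bloc1s6 (pallidin) is a subunit of BLOC-1, the complex that sorts cargo from endosomes to lysosome-related organelles. Rabgef1 (Rabex-5) is a guanine nucleotide exchange factor that switches on the early endosomal GTPase Rab5. Arf5 is a small GTPase of the Golgi and the compartment before it, and Chmp5 belongs to the ESCRT machinery, which buds vesicles into endosomes and cuts membranes. In spermatids, vesicles from the Golgi and the endosomal system build the acrosome, the cap of enzymes on the sperm head that is related to lysosomes.

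All 4 genes lie on the forward strand of the mm10 genome and are protein coding: Bloc1s6 (ENSMUSG00000005804) at chr2:122738503-122749475, Rabgef1 (ENSMUSG00000025340) at chr5:130171798-130214342, Arf5 (ENSMUSG00000020440) at chr6:28423560-28426602 and Chmp5 (ENSMUSG00000028419) at chr4:40948407-40965303. The sequence just before the annotated start is shown for the 3 genes with an entry in the RefSeq promoter table (build GRCm38.p6), since 1 of them was lower and 2 were higher in the Prm2 -/- library. Bloc1s6 is named only. Capitals mark TGACG, searched on both strands (CGTCA on the strand shown), the core letters of the cAMP response element bound by CREM, a transcription factor of spermatids.
Rabgef1, chr5:130171569-130171797: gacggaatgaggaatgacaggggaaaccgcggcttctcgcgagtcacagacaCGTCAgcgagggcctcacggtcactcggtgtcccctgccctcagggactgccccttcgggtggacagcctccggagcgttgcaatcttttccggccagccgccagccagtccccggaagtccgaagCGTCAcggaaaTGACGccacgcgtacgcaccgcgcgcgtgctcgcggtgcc
Arf5, chr6:28423354-28423559: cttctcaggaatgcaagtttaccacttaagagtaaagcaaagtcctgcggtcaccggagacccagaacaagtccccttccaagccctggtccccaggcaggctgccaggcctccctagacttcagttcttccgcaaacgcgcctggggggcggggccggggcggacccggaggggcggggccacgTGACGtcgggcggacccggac
Chmp5, chr4:40948303-40948406: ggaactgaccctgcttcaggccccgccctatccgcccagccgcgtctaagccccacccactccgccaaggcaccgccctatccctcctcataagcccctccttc
The 229 bases before Rabgef1 held 3 matches, 40 bases before the start on the strand shown and 51 and 177 bases before it on the other strand. The 206 bases before Arf5 held 1, on the strand shown and 21 bases before the start. The 104 bases before Chmp5 held 0. Over 27025 promoters in the table, 15.5% of windows of the Rabgef1 length, 13.1% of the Arf5 length and 5.44% of the Chmp5 length held the letters at least once. Those windows were cut from the first base of each entry, not up to an annotated start. They need not be placed as the windows shown.

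The Prm2 -/- library held 123588822 UMIs (unique molecular identifiers, 1 per captured RNA molecule) in 22885 barcodes and the Prm2 +/- library 71364845 UMIs in 15210 barcodes, with medians of 3716 and 1882.5 UMIs. Both have more barcodes than the 15000 cells said to be loaded, the Prm2 -/- library by far, so the loading may have differed from the labels or between libraries, which was not tested. After filtering, 18963 Prm2 -/- and 14576 Prm2 +/- cells were kept. Both libraries shared 88 barcodes before filtering and 68 among kept cells. Doublets removed made up 15.7% of Prm2 -/- and 3.07% of Prm2 +/- barcodes that passed the filters. The rates expected from barcode numbers were 18.0% and 12.0%. The Prm2 +/- library may thus keep more doublets, which was not tested. Cells fell into 24 clusters, which markers sorted into 9 classes, each called "like" its cell type. Summed own markers were 1.82 to 48.1 times (Prm2 -/-) and 1.73 to 70.0 times (Prm2 +/-) as high in their class as in the class next in order, lowest for late spermatocytes. Unnamed clusters held 21.5% of Prm2 -/- and 31.4% of Prm2 +/- cells. Prm2 itself stood at 9.90 CPM (UMIs per 1000000 UMIs) in Prm2 -/- and 20205 CPM in Prm2 +/- spermatids. In all other cells, unnamed clusters included, it stood at 2.01 CPM in the Prm2 -/- library and 4112 CPM in the Prm2 +/- library. Some of those may be spermatids, since a spermatid class scored first in the unnamed clusters 4 and 18 and a close second in cluster 2. Elongating spermatids split by library, since 2512 Prm2 -/- but 117 Prm2 +/- cells were in cluster 14, and 113 Prm2 -/- but 1885 Prm2 +/- cells in cluster 7. The unnamed cluster 4 held 60 Prm2 -/- and 2990 Prm2 +/- cells.

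Across spermatids (round-spermatid-like and elongating-spermatid-like cells together, 9771 Prm2 -/- and 5975 Prm2 +/- cells), Bloc1s6 and Rabgef1 were lower and Arf5 and Chmp5 higher in the Prm2 -/- library. Outside spermatids (9192 Prm2 -/- and 8601 Prm2 +/- cells, unnamed clusters included) each gene pointed the same way, with an interval clear of 0. Those other cells also held spermatid RNA, since Prm1 there stood at 15.9% of its spermatid level in the Prm2 -/- and 19.2% in the Prm2 +/- library, and its part in the gaps outside spermatids was not tested. The unnamed clusters 2, 4 and 18, which may hold spermatids, are counted there too. With named classes only, the log2 ratios outside spermatids were -0.78 for Bloc1s6, 1.03 for Arf5 and 0.88 for Chmp5. As pooled sums, Bloc1s6, Arf5 and Chmp5 differed by more within spermatids than outside them. Single clusters of Chmp5 overlapped, however, with log2 ratios of 0.90 and 0.01 in spermatid clusters 3 and 10. Late spermatocyte cluster 0 had 1.10 and early spermatocytes 0.20. Arf5 ran from 0.72 to 1.51 in elongating clusters 3, 7 and 14, below its class ratio of 2.09. The part of the cluster mix in the pooled ratios was not tested. Rabgef1 differed by about as much outside, at a log2 ratio of -2.82 beside -3.00, but by less there with named classes only (-2.14), equal weight per cell (-2.22) or thinned cells (-2.09). A 2-fold difference is used below as a rule of size for genes that reach 50 CPM in either library and 100 UMIs over both. In spermatids 3453 genes met these minimums, of which 2.2% were 2-fold or more higher and 0.724% 2-fold or more lower in the Prm2 -/- library. Arf5 and Chmp5 were among the higher and Bloc1s6 among the lower, and Rabgef1 missed the minimum level. In all other cells 4319 genes met them, with 0.695% higher and 0.625% lower by 2-fold. Rabgef1 was among the lower there, Arf5 met the minimums but not 2-fold, and Bloc1s6 and Chmp5 missed the minimum level. By order of ratio in spermatids, Bloc1s6 was the 3rd lowest, Arf5 the 9th highest and Chmp5 the 25th highest. In all other cells Rabgef1 was the 3rd lowest and Arf5 the 44th highest. Among round-spermatid-like cells, where 0.991% of 3936 genes were higher and 0.813% lower by 2-fold, Arf5 and Chmp5 were among the higher and Bloc1s6 among the lower. The same 3 genes were so placed in elongating-spermatid-like cells, where 8.46% of 2493 genes were higher and 0.963% lower. Scaling by edgeR's TMM factors, which level the bulk of genes between libraries, turns that split to 1.12% higher and 4.25% lower and ends the call of Chmp5 there (0.90), while Arf5 (1.55) and Bloc1s6 (-5.35) keep theirs. In spermatids together it gives 0.985% higher and 1.07% lower, and Arf5 (1.57), Chmp5 (1.06) and Bloc1s6 (-4.94) stay past 2-fold. In late-spermatocyte-like cells Rabgef1 was among the 0.562% of 4096 genes that were 2-fold or more lower. Because these contrasts chose the genes, nothing is read from their ranks.

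Bloc1s6, the BLOC-1 subunit, gave 112 UMIs in Prm2 -/- spermatids and 1889 in Prm2 +/- spermatids. Its level was 2.12 CPM (1.75 to 2.56) in Prm2 -/- and 56.8 CPM (54.2 to 59.4) in Prm2 +/- spermatids, 26.7-fold lower in the Prm2 -/- library (22.1 to 32.6), a log2 ratio of -4.74. In all other cells it was 11.6 CPM (10.7 to 12.7) in the Prm2 -/- and 22.9 CPM (21.3 to 24.6) in the Prm2 +/- library, a log2 ratio of -0.98 (-1.14 to -0.81). The place of spermatids in the order of cells was therefore opposite: the gene was 5.48-fold lower in spermatids than in other cells of the Prm2 -/- library and 2.48-fold higher in the Prm2 +/- library. The level was 2.17 CPM in Prm2 -/- and 56.1 CPM in Prm2 +/- round-spermatid-like cells. It was 2.05 CPM in Prm2 -/- and 57.6 CPM in Prm2 +/- elongating-spermatid-like cells. Both stages thus showed a like gap, with log2 ratios of -4.69 (-5.06 to -4.35) and -4.82 (-5.32 to -4.35).

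Before meiosis ends, the Bloc1s6 gap was smaller or within counting error. Spermatogonia-like cells, the stem and dividing germ cells, had 20.4 CPM (14.8 to 27.4) in the Prm2 -/- and 31.8 CPM (21.9 to 44.6) in the Prm2 +/- library. Early-spermatocyte-like cells had 27.6 CPM (21.0 to 35.6) in the Prm2 -/- and 29.3 CPM (20.4 to 40.7) in the Prm2 +/- library. Late-spermatocyte-like cells had 10.9 CPM (8.85 to 13.3) in the Prm2 -/- and 20.3 CPM (17.6 to 23.4) in the Prm2 +/- library. The intervals overlapped in the first pair of classes and not in late spermatocytes, whose log2 ratio was -0.90. Among somatic classes, Sertoli-like cells, which support germ cells in the tubule, had 12.6 CPM (8.24 to 18.5) in the Prm2 -/- and 39.0 CPM (30.1 to 49.6) in the Prm2 +/- library. Steroid-making Leydig-like cells had 7.74 CPM (2.84 to 16.8, 6 UMIs) in the Prm2 -/- and 21.7 CPM (13.4 to 33.1, 21 UMIs) in the Prm2 +/- library. Interstitial-stromal-like cells gave 4 UMIs in the Prm2 -/- and 7 in the Prm2 +/- library. Macrophage-like cells gave 0 UMIs in the Prm2 -/- library, which allows up to 29.5 CPM (floor of 3 counts), and 4 in the Prm2 +/- library. In the Prm2 -/- library, early spermatocytes stood highest and neighbours in the order of classes overlapped, except that Leydig-like and round-spermatid-like cells did not. In the Prm2 +/- library the spermatid classes stood highest and late spermatocytes lowest, and neighbours overlapped throughout.

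**Figure D1:**
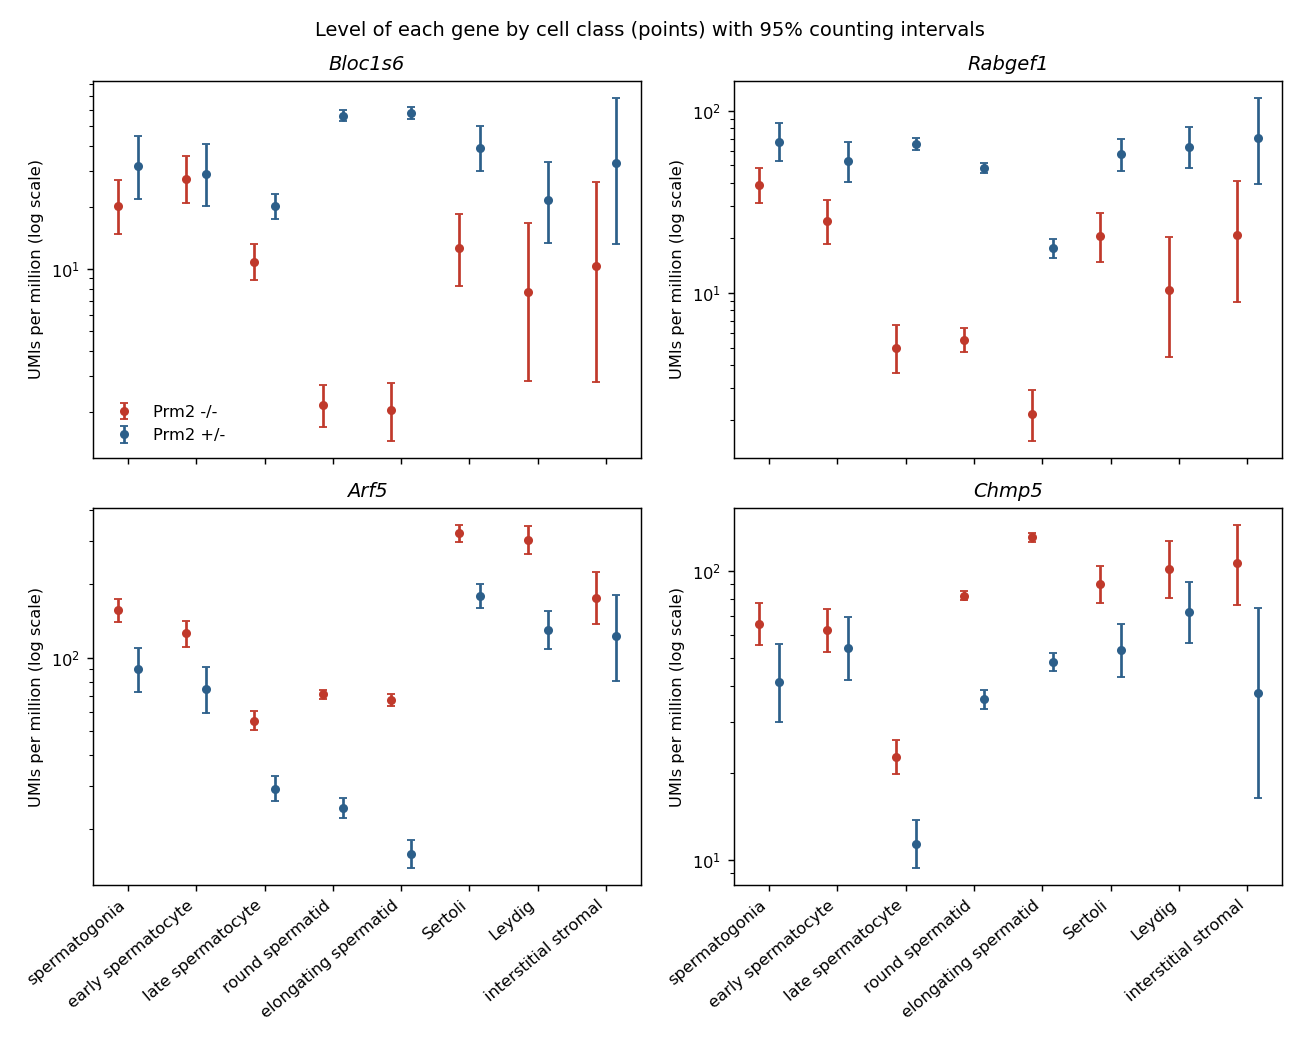
Level of each gene (CPM, log scale) in 8 classes, with Prm2 -/- in red left of Prm2 +/- in blue, points for the summed level and bars for 95% counting intervals; macrophage-like cells are left out. The widest gaps of Bloc1s6 are at the round and elongating spermatid and that of Rabgef1 at the late spermatocyte, and the red points of Arf5 and Chmp5 lie above the blue ones in every class drawn.

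Rabgef1, the Rab5 activator, was lower in the Prm2 -/- library in germ and somatic classes alike. Spermatids gave 4.31 CPM (3.76 to 4.90, 227 UMIs) in the Prm2 -/- and 34.3 CPM (32.4 to 36.4, 1142 UMIs) in the Prm2 +/- library, 7.97-fold lower (6.91 to 9.23). All other cells gave 8.60 CPM (7.77 to 9.49) in the Prm2 -/- and 60.7 CPM (58.1 to 63.4) in the Prm2 +/- library, 7.06-fold lower (6.34 to 7.89). The log2 ratios, -3.00 (-3.21 to -2.79) in spermatids and -2.82 (-2.98 to -2.66) in the rest, had overlapping intervals. The classes were not equal, however. Spermatogonia-like cells had 38.9 CPM (31.0 to 48.2) in the Prm2 -/- and 67.4 CPM (52.6 to 85.2) in the Prm2 +/- library, a log2 ratio of -0.79 (-1.27 to -0.31). Early-spermatocyte-like cells had 24.8 CPM (18.6 to 32.4) in the Prm2 -/- and 52.7 CPM (40.5 to 67.4) in the Prm2 +/- library, a log2 ratio of -1.09 (-1.64 to -0.54). Late-spermatocyte-like cells had 4.95 CPM (3.61 to 6.62) in the Prm2 -/- and 65.6 CPM (60.6 to 70.8) in the Prm2 +/- library. Their log2 ratio of -3.73 (-4.20 to -3.29) was the lowest of the 8 classes with 20 or more UMIs of the gene, and it lay outside the intervals of the earlier germ classes.

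After meiosis the Rabgef1 gap stayed near that of all other cells. Round-spermatid-like cells had 5.53 CPM (4.76 to 6.38) in the Prm2 -/- and 48.4 CPM (45.2 to 51.7) in the Prm2 +/- library, a log2 ratio of -3.13. Elongating-spermatid-like cells had 2.15 CPM (1.54 to 2.92) in the Prm2 -/- and 17.6 CPM (15.5 to 19.8) in the Prm2 +/- library, a log2 ratio of -3.03. Both libraries thus had less of it in elongating than in round spermatids, with intervals that did not overlap. Sertoli-like cells had 20.4 CPM (14.7 to 27.5) in the Prm2 -/- and 57.5 CPM (46.6 to 70.3) in the Prm2 +/- library, a log2 ratio of -1.50. Leydig-like cells had 10.3 CPM (4.46 to 20.3) in the Prm2 -/- and 63.0 CPM (48.2 to 80.9) in the Prm2 +/- library, a log2 ratio of -2.61. Interstitial-stromal-like cells had 20.7 CPM (8.95 to 40.8) in the Prm2 -/- and 71.0 CPM (39.7 to 117) in the Prm2 +/- library, a log2 ratio of -1.78. All 3 somatic intervals of the ratio lay below 0. Macrophage-like cells gave 2 UMIs in the Prm2 -/- and 1 in the Prm2 +/- library, too few to compare. In the Prm2 -/- library spermatogonia stood highest, and the class intervals of neighbours overlapped except between late spermatocytes and elongating spermatids. In the Prm2 +/- library neighbours from interstitial stroma down to round spermatids overlapped, and elongating spermatids stood apart below them.

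Arf5, the small GTPase, was higher in the Prm2 -/- library in all 9 classes. Spermatids gave 69.6 CPM (67.3 to 71.8, 3667 UMIs) in the Prm2 -/- and 20.5 CPM (19.0 to 22.1, 682 UMIs) in the Prm2 +/- library, 3.39-fold higher (3.13 to 3.69). All other cells gave 127 CPM (124 to 130.3) in the Prm2 -/- and 66.7 CPM (64.0 to 69.5) in the Prm2 +/- library, 1.90-fold higher (1.81 to 2.00). The log2 ratios, 1.76 (1.64 to 1.88) and 0.93 (0.86 to 1.00), had intervals that did not overlap. Round-spermatid-like cells had 70.9 CPM (68.1 to 73.8) in the Prm2 -/- and 24.4 CPM (22.2 to 26.8) in the Prm2 +/- library, a log2 ratio of 1.54. Elongating-spermatid-like cells had 67.2 CPM (63.6 to 71.0) in the Prm2 -/- and 15.8 CPM (13.9 to 17.9) in the Prm2 +/- library, a log2 ratio of 2.09. The spermatid classes were therefore level in the Prm2 -/- library, while in the Prm2 +/- library elongating cells had less than round ones.

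Outside spermatids the Arf5 log2 ratios ran from 0.52 to 1.22, and 6 of 7 intervals lay above 0. Sertoli-like cells, the class with the most Arf5, had 323 CPM (299 to 348) in the Prm2 -/- and 179 CPM (159 to 201) in the Prm2 +/- library. Their log2 ratio of 0.85 was 1076th from the highest of 4635 genes, of which 19.2% were 2-fold or more higher. Leydig-like cells had 303 CPM (266 to 345) in the Prm2 -/- and 130.1 CPM (108 to 155) in the Prm2 +/- library. Macrophage-like cells had 266 CPM (175 to 386) in the Prm2 -/- and 119 CPM (54.3 to 225) in the Prm2 +/- library. Interstitial-stromal-like cells, with 176 CPM (137 to 223) in the Prm2 -/- and 123 CPM (80.3 to 180.2) in the Prm2 +/- library, had the interval that reached below 0. Spermatogonia-like cells had 156 CPM in the Prm2 -/- and 89.6 CPM in the Prm2 +/- library, and early-spermatocyte-like cells 126 CPM in the Prm2 -/- and 74.4 CPM in the Prm2 +/- library. Late-spermatocyte-like cells had 55.3 CPM (50.6 to 60.4) in the Prm2 -/- and 29.2 CPM (25.9 to 32.8) in the Prm2 +/- library. In both libraries somatic classes and the early germ classes stood above late spermatocytes and spermatids, and among those higher classes neighbouring intervals overlapped, except those of Sertoli-like and Leydig-like cells in the Prm2 +/- library. Arf5 lies inside Gcc1, a Golgi coiled-coil gene on the opposite strand, and the sources used here do not say whether strand was used in counting. Gcc1 had 17.6 CPM in Prm2 -/- and 10.7 CPM in Prm2 +/- spermatids, and 5.47 CPM in Prm2 -/- and 5.68 CPM in Prm2 +/- other cells.

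Chmp5, of the ESCRT machinery, was higher in the Prm2 -/- library by 2.40-fold (2.26 to 2.54) in spermatids, with 99.8 CPM (97.1 to 103, 5262 UMIs) in the Prm2 -/- and 41.7 CPM (39.5 to 43.9, 1386 UMIs) in the Prm2 +/- library. All other cells gave 35.9 CPM (34.2 to 37.7) in the Prm2 -/- and 21.7 CPM (20.2 to 23.4) in the Prm2 +/- library, 1.65-fold higher (1.51 to 1.80). The log2 ratios were 1.26 (1.17 to 1.35) in spermatids and 0.72 (0.60 to 0.85) in the rest, again with intervals apart. Round-spermatid-like cells had 82.3 CPM (79.2 to 85.4) in the Prm2 -/- and 36.0 CPM (33.3 to 38.9) in the Prm2 +/- library, a log2 ratio of 1.19. Elongating-spermatid-like cells had 131 CPM (126 to 136) in the Prm2 -/- and 48.4 CPM (45.0 to 52.0) in the Prm2 +/- library, a log2 ratio of 1.43. Chmp5 was thus higher in elongating than in round cells of both libraries. Late-spermatocyte-like cells had the lowest level in both, with 22.8 CPM (19.8 to 26.1) in the Prm2 -/- and 11.4 CPM (9.38 to 13.7) in the Prm2 +/- library, a log2 ratio of 1.00 (0.66 to 1.34). Early-spermatocyte-like cells had 62.6 CPM (52.5 to 74.2) in the Prm2 -/- and 54.3 CPM (41.9 to 69.2) in the Prm2 +/- library, with overlapping intervals.

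The remaining Chmp5 ratios were positive and less precise. Spermatogonia-like cells had 65.8 CPM in the Prm2 -/- and 41.4 CPM in the Prm2 +/- library. Sertoli-like cells had 90.2 CPM (77.7 to 104) in the Prm2 -/- and 53.3 CPM (42.8 to 65.6) in the Prm2 +/- library. These classes had log2 ratios of 0.67 (0.17 to 1.19) and 0.76 (0.39 to 1.14). The Sertoli ratio was 1200th from the highest of 4635 genes, of which 19.2% were 2-fold or more higher. Leydig-like cells had 102 CPM (80.7 to 127) in the Prm2 -/- and 72.3 CPM (56.3 to 91.3) in the Prm2 +/- library. Interstitial-stromal-like cells gave 41 UMIs in the Prm2 -/- and 8 in the Prm2 +/- library, a log2 ratio of 1.49 (0.38 to 2.79). Macrophage-like cells gave 4 UMIs in the Prm2 -/- and 2 in the Prm2 +/- library. Elongating spermatids led the order in the Prm2 -/- library and Leydig-like cells in the Prm2 +/- library. Neighbours in that order overlapped in both libraries, except round spermatids and spermatogonia in the Prm2 -/- library.

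**Figure D2:**
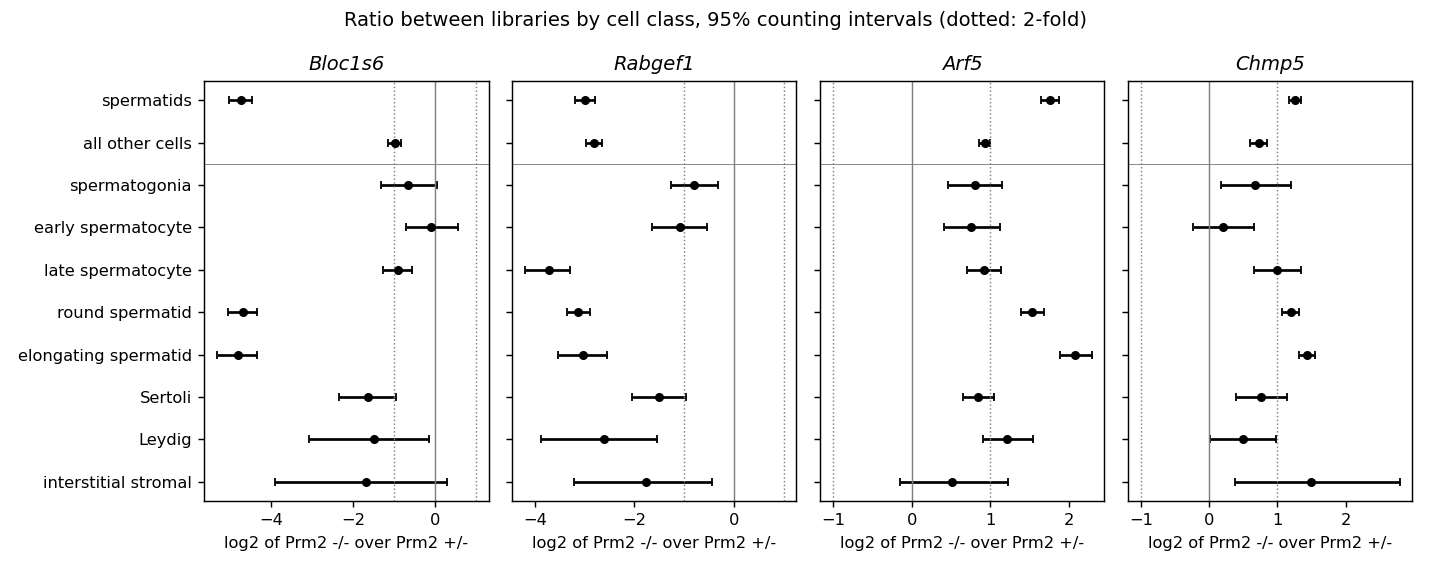
Log2 of the Prm2 -/- level over the Prm2 +/- level in spermatids, in all other cells and in 8 classes, with 95% counting intervals, dotted lines at 2-fold and a solid line at 0. Bloc1s6 reaches -4.74 in spermatids and -0.98 elsewhere, Rabgef1 -3.00 and -2.82, Arf5 1.76 and 0.93, and Chmp5 1.26 and 0.72.

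Single clusters, formed without these 4 genes, showed more finely where the gaps lay. Of 19 clusters with at least 50 cells in each library, Bloc1s6 was 2-fold or more lower in 14 of the 18 with 20 or more UMIs. The lowest ratio was in round spermatid cluster 20, with 19 UMIs (1.46 CPM) from 1344 Prm2 -/- cells and 397 UMIs (89.4 CPM) from 368 Prm2 +/- cells, 61.2-fold lower (38.7 to 103). The spermatid clusters ranged in log2 ratio from there up to -3.10 (-4.01 to -2.31) in round spermatid cluster 1. In late spermatocyte cluster 5 the ratio was 0.18 (-0.41 to 0.78), with 14.7 CPM in Prm2 -/- and 13.0 CPM in Prm2 +/- cells. It was 0.14 (-0.20 to 0.49) in the deeply counted unnamed cluster 15, led by the meiotic genes Piwil1, Cks2 and Tex101, with 14.8 CPM (202 UMIs) in Prm2 -/- and 13.4 CPM (107 UMIs) in Prm2 +/- cells. In these clusters and in early spermatocytes Bloc1s6 did not differ beyond counting error, which allows at most a 1.15-fold lower level in the Prm2 -/- cells of cluster 15. It was lower, however, in the larger late spermatocyte cluster 0, at -1.58 (-2.10 to -1.09), from 43 Prm2 -/- and 157 Prm2 +/- UMIs. The unnamed cluster 6, whose markers lay between late and early spermatocyte, stood at -1.23 (-1.83 to -0.62). Cluster 2, whose markers lay between late spermatocyte and round spermatid, was at -2.05 (-2.63 to -1.49).

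Rabgef1 was much lower in the Prm2 -/- cells of those same meiotic clusters. Its log2 ratio was -3.86 (-4.64 to -3.17) in cluster 5, from 18 Prm2 -/- and 238 Prm2 +/- UMIs. It was -3.33 (-3.72 to -2.97) in cluster 15, with 5.22 CPM in Prm2 -/- and 52.7 CPM in Prm2 +/- cells. It was 2-fold or more lower in 16 of the 17 clusters with a ratio, and spermatogonia were the exception. Of 2 further clusters, elongating cluster 7 gave 0 UMIs from 113 Prm2 -/- cells, which allows up to 5.71 CPM on that floor, against 14.6 CPM in Prm2 +/- cells, at least 2.56-fold lower (floor of 3 counts in the Prm2 -/- cells). Cluster 4 gave 0 UMIs from 60 Prm2 -/- cells and 61.2 CPM from Prm2 +/- cells, at least 2.01-fold lower on the same floor.

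Arf5 was higher in the Prm2 -/- cells of all 19 clusters, from 0.52 to 1.64 in log2 ratio, with the highest in round spermatid cluster 12. The ratio of 2.09 for elongating spermatids as a class was above that of each elongating cluster, where it was 1.49 in cluster 3, 1.51 in cluster 7 and 0.72 (0.12 to 1.39) in cluster 14. Chmp5 was above 0 in 17 of the 19 clusters and below 0 in 2, and 14 intervals lay above 0. It did not differ beyond counting error in round cluster 10, with 80.4 CPM in Prm2 -/- and 79.8 CPM in Prm2 +/- cells, or in elongating cluster 7, with 34.3 CPM in Prm2 -/- and 33.6 CPM in Prm2 +/- cells. The same held outside spermatids in the unnamed clusters 6, at -0.04 (-0.50 to 0.43), and 4, at -0.41 (-3.48 to 1.48), and in early spermatocyte cluster 16, at 0.20 (-0.23 to 0.66). It had log2 ratios of 0.90 in cluster 3, 0.81 in clusters 14 and 20 and 1.21 in cluster 12. For Chmp5, 3 of the 19 clusters passed 2-fold, and the class ratio of 1.43 in elongating spermatids was above that within each of clusters 3, 7 and 14.

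**Figure D3:**
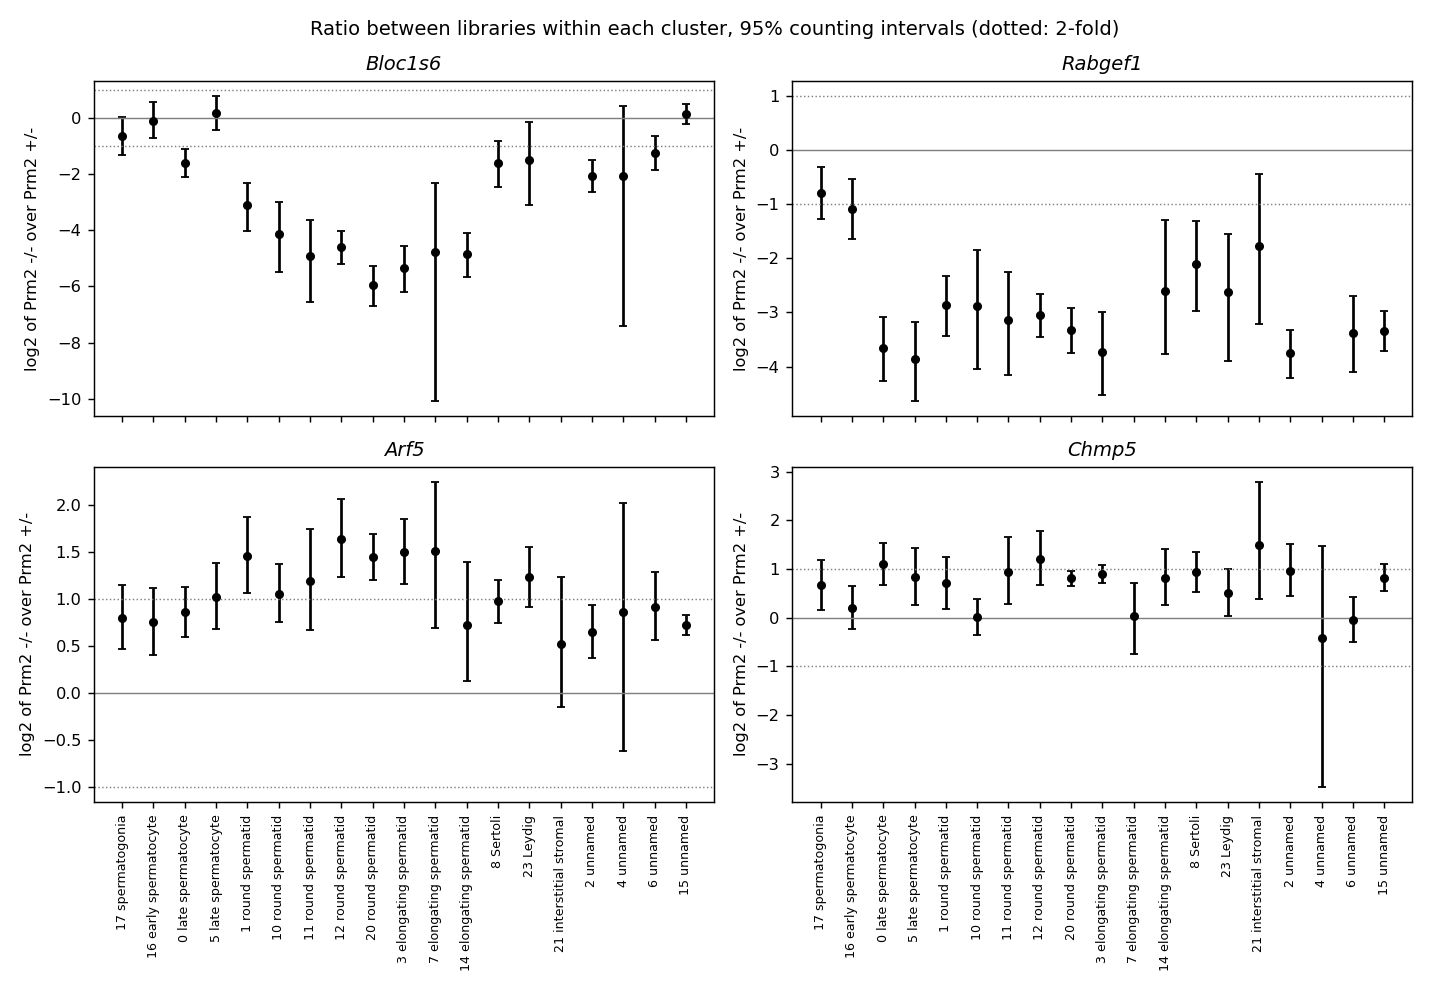
Log2 of the Prm2 -/- level over the Prm2 +/- level within each cluster of at least 50 cells per library and 20 or more UMIs, with 95% counting intervals and dotted lines at 2-fold; a cluster with 0 UMIs in a library has no point. Bloc1s6 sits near 0 in clusters 16, 5 and 15 and below -3 in spermatid clusters, while Rabgef1 lies below -1 everywhere but in spermatogonia.

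Spermatids were also grouped by a stage index, the elongating share of round plus elongating marker UMIs with protamine and transition protein genes left out. The first 2 of 5 bins held 5 and 52 Prm2 +/- cells and are not used. Bloc1s6 had 1.91, 2.19 and 2.20 CPM in the last 3 bins of the Prm2 -/- library and 49.6, 63.1 and 57.8 CPM in those of the Prm2 +/- library. Its gap was steady along the index, with log2 ratios of -4.70, -4.85 and -4.72. Rabgef1 was lower with stage in both libraries, at 6.19, 4.20 and 2.30 CPM in the Prm2 -/- and 51.4, 47.4 and 19.2 CPM in the Prm2 +/- library, with log2 ratios of -3.05, -3.50 and -3.07. Arf5 peaked in the middle bin of both, with 49.0, 103 and 74.0 CPM in the Prm2 -/- and 14.6, 28.7 and 19.5 CPM in the Prm2 +/- library. Its log2 ratios were 1.75, 1.85 and 1.93, with overlapping intervals. Chmp5 also peaked there, at 40.7, 184 and 122 CPM in the Prm2 -/- and 11.6, 57.7 and 50.1 CPM in the Prm2 +/- library. Its log2 ratio was smaller at the end, with 1.81 (1.51 to 2.12), 1.67 (1.52 to 1.82) and 1.28 (1.17 to 1.40). The bins match cells only in part. The last held 4579 Prm2 -/- and 3129 Prm2 +/- cells, more than the 3657 and 2251 elongating-spermatid-like cells. In the middle bin the medians were 3564 UMIs in Prm2 -/- and 1743 in Prm2 +/- cells. TMM factors, not used in these ratios, shift them by 0.02, 0.06 and -0.40, which puts Chmp5 below 2-fold in the last bin.

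The differences were also seen in the share of cells with a molecule. After each cell was thinned to 1500 UMIs, Bloc1s6 was found in 0.258% (exact Clopper-Pearson interval 0.158 to 0.399%) of 7742 Prm2 -/- spermatids and 7.50% (6.74 to 8.31%) of 4416 Prm2 +/- spermatids. Before thinning it was found in 1.13% of Prm2 -/- and 22.4% of Prm2 +/- spermatids, and 1 Prm2 -/- spermatid held more than 1 molecule. Rabgef1 was found in 0.594% (0.435 to 0.792%) of Prm2 -/- and 4.26% (3.68 to 4.90%) of Prm2 +/- thinned spermatids, and in 2.27% of Prm2 -/- and 15.1% of Prm2 +/- spermatids unthinned. Both shares pointed the way the levels did. Arf5 was found in 10.5% (9.79 to 11.2%) of Prm2 -/- and 3.03% (2.55 to 3.58%) of Prm2 +/- thinned spermatids, and in 26.6% of Prm2 -/- and 9.87% of Prm2 +/- spermatids unthinned. Chmp5 was found in 12.5% (11.7 to 13.2%) of Prm2 -/- and 5.19% (4.55 to 5.88%) of Prm2 +/- thinned spermatids, and in 26.7% of Prm2 -/- and 14.7% of Prm2 +/- spermatids unthinned. Among thinned other cells the shares were 1.85% of Prm2 -/- and 3.56% of Prm2 +/- cells for Bloc1s6, and 1.96% of Prm2 -/- and 8.32% of Prm2 +/- cells for Rabgef1. They were 16.2% of Prm2 -/- and 8.59% of Prm2 +/- cells for Arf5, and 6.24% of Prm2 -/- and 3.70% of Prm2 +/- cells for Chmp5. Thinning left out 2029 Prm2 -/- and 1559 Prm2 +/- spermatids, and 2494 Prm2 -/- and 4525 Prm2 +/- other cells. No cell class was known to lack these genes, so no background share was available.

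Spermatid RNA was present in every class, and its level differed between libraries. Prm1, the other protamine, stood at 7804 CPM in Prm2 -/- and 23366 CPM in Prm2 +/- Sertoli-like cells, and at 4105 CPM in Prm2 -/- and 16546 CPM in Prm2 +/- Leydig-like cells. Bloc1s6 gave 1.62 UMIs per 1000 Prm1 UMIs in Prm2 -/- and 1.67 in Prm2 +/- Sertoli-like cells. Within spermatids the same ratio was 0.303 in Prm2 -/- and 5.24 in Prm2 +/- round cells, and 0.0310 in Prm2 -/- and 0.650 in Prm2 +/- elongating cells. The Sertoli ratio therefore lay above both spermatid ratios in the Prm2 -/- library and between them in the Prm2 +/- library. The part of spermatid RNA in the Bloc1s6 gap of somatic cells was not tested. Rabgef1 gave 2.61 UMIs per 1000 Prm1 UMIs in Prm2 -/- and 2.46 in Prm2 +/- Sertoli-like cells, against 0.772 in Prm2 -/- and 4.52 in Prm2 +/- round cells. In cluster 15, where Prm1 was lower at 1457 CPM in Prm2 -/- and 2879 CPM in Prm2 +/- cells, the log2 ratio of Rabgef1 was -3.33, beside -3.00 in spermatids.

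Of the 3453 genes that met both minimums in pooled spermatids, 2.2% were 2-fold or more higher and 0.724% lower in the Prm2 -/- library. The genes around the 4 were compared without the minimum of 50 CPM, so their counts are not on the same rule. Of 20 genes within 100 kb that had 100 or more UMIs, 1 passed 2-fold in spermatids, and the log2 ratios ran from -0.64 to 1.07. That gene was 4930417H01Rik, near Bloc1s6, with 115 CPM in Prm2 -/- and 54.7 CPM in Prm2 +/- spermatids, higher where Bloc1s6 was lower. Bloc1s6os, which starts 141 bases from Bloc1s6 on the other strand, had 1.19 CPM (63 UMIs) in Prm2 -/- and 1.86 CPM (62 UMIs) in Prm2 +/- spermatids, a log2 ratio of -0.64 (-1.17 to -0.11). The stages went opposite ways, with -1.51 (-2.16 to -0.88) in round cells, the direction of Bloc1s6, and 1.62 (0.38 to 3.06) in elongating cells, where it gave 27 Prm2 -/- and 7 Prm2 +/- UMIs. In other cells its ratio was 0.52 (0.31 to 0.73). The metabolic enzyme gene Sqor on the far side of Bloc1s6 had 389 CPM in Prm2 -/- and 255 CPM in Prm2 +/- spermatids.

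Around Rabgef1 the ratios of 6 genes in spermatids ran from 0.18 for Sbds to 0.61 for Tpst1, all above 0. Around Arf5 they ran from -0.43 for Fscn3, a fascin of the sperm head, to 0.72 for Gcc1. Around Chmp5 they ran from -0.28 for the co-chaperone Bag1, 113 bases away on the opposite strand, to 0.53 for Nfx1. Bag1 had 763 CPM in Prm2 -/- and 929 CPM in Prm2 +/- spermatids. The largest neighbour ratio outside spermatids was that of Spink4 near Chmp5, at -1.48, with 1.73 CPM in Prm2 -/- and 4.82 CPM in Prm2 +/- cells. By stage, 1 of the 20 neighbours was 2-fold or more higher and 1 lower in round cells, while 7 were higher and 0 lower in elongating cells. Among genes that met both minimums the shares were 0.991% higher and 0.813% lower in round cells. In elongating cells they were 8.46% higher and 0.963% lower, but the neighbours had no minimum level. Those 7 were AA467197, 4930417H01Rik and Bloc1s6os near Bloc1s6, Kctd7 and Tyw1 near Rabgef1, and Zfp800 and Snd1 near Arf5, with log2 ratios from 1.02 to 1.87. Of these, Bloc1s6os, Snd1, Kctd7 and Tyw1 gave only 7, 10, 16 and 18 UMIs in Prm2 +/- elongating cells. Snd1 was at 1.87 (0.87 to 3.03) and Zfp800 at 1.34 (0.90 to 1.79), and Arf5 was at 2.09 (1.89 to 2.29). TMM factors leave 3 of the 7 past 2-fold, Bloc1s6os, Tyw1 and Snd1, all among those with few UMIs. They also put 1 of the 20 neighbours, Spink4 near Chmp5, 2-fold or more lower. Rabgef1 also spans a pair of annotated processed pseudogenes, Gm15920 and Gm15921, which are not in the gene list of the files.

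**Figure D4:**
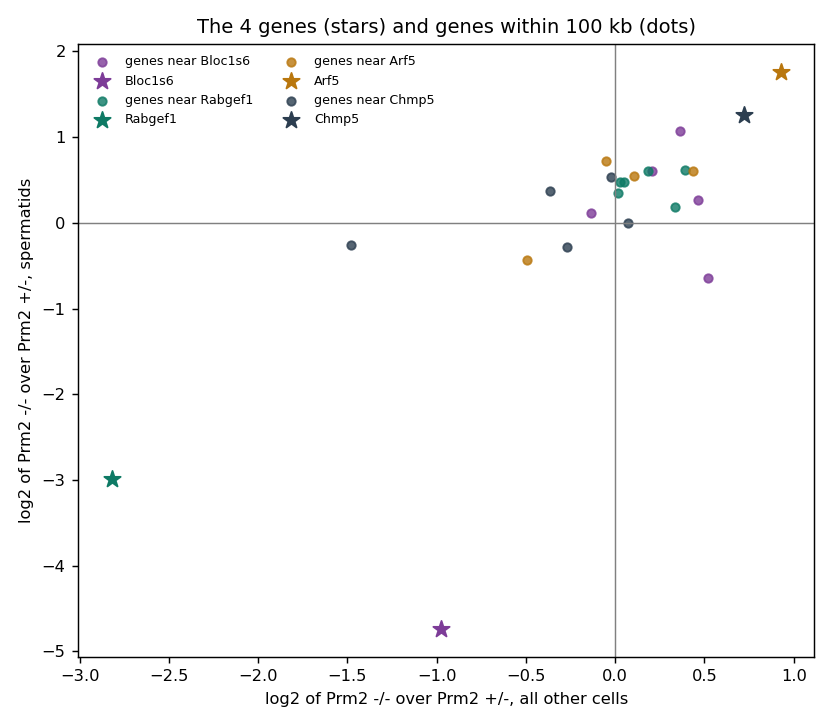
Log2 of the Prm2 -/- level over the Prm2 +/- level in all other cells (horizontal) and in spermatids (vertical) for the 4 genes (stars) and 20 genes within 100 kb of them (dots). The dots lie between -0.64 and 1.07 on the vertical axis, and the stars of Bloc1s6 at -4.74 and Rabgef1 at -3.00 lie far below them.

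Few partners of the 4 proteins could be compared in spermatids, and no other subunit of BLOC-1. Of 26 other BLOC-1, AP-3 and organelle biogenesis genes, 2 met the minimums in spermatids and 0 passed 2-fold. They were the AP-3 adaptor subunits Ap3s1, with 155 CPM in Prm2 -/- and 113 CPM in Prm2 +/- spermatids (log2 ratio 0.45), and Ap3b1 (0.29). Of 29 other Rab5 and early endosome genes, 2 met them and 0 passed. They were the endosomal GTPases Rab31 at 0.44 and Rab22a at -0.34, with 107 CPM in Prm2 -/- and 136 CPM in Prm2 +/- spermatids for Rab22a. The median over all genes compared in spermatids was 0.15. The medians of these lists were 0.37 and 0.05. Scaling by TMM factors shifts every log2 ratio in spermatids by -0.20, which puts the second median below 0.

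Of 38 other Arf GTPase, Arf regulator and COPI coat genes, 13 met the minimums in spermatids, 0 passed 2-fold and 9 were above 0, with a median of 0.33. The highest was Arf1, the main Golgi Arf, with 105 CPM in Prm2 -/- and 61.0 CPM in Prm2 +/- spermatids, a log2 ratio of 0.78. Arfrp1 followed at 0.61, the GTPase-activating protein Arfgap3 at 0.60 and the exchange factor Cyth2 at 0.47. In elongating-spermatid-like cells 10 met the minimums, with a median of 0.67 beside 0.26 for all genes. Of them 1 passed 2-fold, Arf1 at 1.12, in a class where 8.46% of 2493 genes were 2-fold or more higher. TMM factors shift every log2 ratio there by -0.54, which puts Arf1 below 2-fold. Of 31 other ESCRT genes, 10 met the minimums, 0 passed 2-fold and 7 were below 0, with a median of -0.02. The ESCRT-I subunit Vps37b stood at 0.67, and the ESCRT-III subunits Chmp4b, Chmp2b and Chmp2a at -0.32, 0.31 and -0.17. In all other cells 7, 6, 18 and 14 genes of the 4 lists met the minimums, with medians of 0.12, 0.28, 0.04 and -0.11 beside 0.04 for all genes, and 0 passed 2-fold. In Sertoli-like cells, where 19.2% of genes were 2-fold or more higher, 1 of 9, 3 of 11, 4 of 18 and 0 of 11 did so.

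Over the 9 classes of both libraries (18 points, which share libraries and depth), the genes most like each of the 4 were found by Pearson correlation of log2(CPM + 1) among 9437 genes. The gap between libraries that chose the 4 genes enters this correlation, which favours genes with a like gap. The library ratios of the genes found thus follow in part from how they were picked. For Bloc1s6 the most like were Gm15564 (r = 0.74), Pdxdc1 (0.72) and Gm15738 (0.71). Pdxdc1 had 37.1 CPM in Prm2 -/- and 80.4 CPM in Prm2 +/- spermatids, a log2 ratio of -1.12. Gm15738 had 9.33 CPM in Prm2 -/- and 73.0 CPM in Prm2 +/- spermatids, a log2 ratio of -2.97. Unlike Bloc1s6, Pdxdc1 was as low outside spermatids, with 39.5 CPM in Prm2 -/- and 97.8 CPM in Prm2 +/- cells and a log2 ratio of -1.31. For Rabgef1 they were the Mediator kinase gene Cdk8 (r = 0.82), AY036118 (0.77) and the ribosomal protein gene Rpl31 (0.75). Cdk8 and AY036118 were also among the 10 top genes of unnamed cluster 4, led by hemoglobin genes, with 60 Prm2 -/- and 2990 Prm2 +/- cells. With at least 1000 UMIs per cell, Rabgef1 joined them in a hemoglobin-led cluster of 28 Prm2 -/- and 1350 Prm2 +/- cells. Whether the RNA of such cells bears on Rabgef1 in the named classes was not tested. Cdk8 had 20.3 CPM in Prm2 -/- and 142 CPM in Prm2 +/- spermatids, a log2 ratio of -2.80, and 49.1 CPM in Prm2 -/- and 161 CPM in Prm2 +/- other cells.

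For Arf5 the most like were the lysosomal protease gene Ctsl (r = 0.95), the syndecan gene Sdc4 (0.94) and Creg1 (0.93). Ctsl, which is also a Sertoli marker used to name classes, had 40.3 CPM in Prm2 -/- and 5.98 CPM in Prm2 +/- spermatids. In other cells it had 168 CPM in Prm2 -/- and 70.7 CPM in Prm2 +/- cells. For Chmp5 they were Ostm1 (r = 0.83), the antiproliferative gene Tob1 (0.82) and Lpp (0.77). Tob1 had 68.5 CPM in Prm2 -/- and 19.3 CPM in Prm2 +/- spermatids, a log2 ratio of 1.83, while Lpp stood at 0.29.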

How the data were processed

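UMI counts were used as deposited. Per the file headers the authors made them with Cell Ranger 7.1.0, and Cell Ranger, Seurat 4.1.0 and the mm10 build are listed per the submitters' processing notes. The annotation, and whether intronic reads or strand were used, are not given in the sources used here. No barcode had under 500 UMIs, so cells had been called before deposit. Columns of other samples numbered 0.

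Kept cells had 500 or more UMIs, 250 or more genes and no more than 20% mitochondrial UMIs. Scrublet doublets were removed (expected rate 0.8% per 1000 barcodes). Scanpy 1.11.5 clustered both libraries jointly, without integration (counts per 10000, 2000 variable genes, 30 components, 20 neighbours, Leiden resolution 1), with protamine, transition protein, Xist, Y and mitochondrial genes and the 4 genes themselves left out. Clusters were named from 14 marker sets. The scoring rule for names, set after seeing the data, ranked sets by mean standardized level (first place needed 0.5, a lead of 0.25 and 3 markers above 10 CPM). Clusters led by markers of some other class among their 10 top genes stayed unnamed. Barcodes with over 1% hemoglobin UMIs (28 Prm2 -/- and 13 Prm2 +/- cells) were left out of the cell classes. They were still counted among all other cells.

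UMIs were summed per class and library. Intervals were exact: Poisson for sums, conditional binomial for ratios (checked on simulated data) and Clopper-Pearson for shares. The precision is limited by counting depth and covers no difference between animals. Gene positions were read from GENCODE M21 (mm10), which holds 32158 of the 32285 IDs.

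The 4 genes and the gene lists were chosen with earlier results of these data known. Besides the 4 genes, the text names up to 4 genes of each list with the largest absolute log2 ratio in spermatids, the 3 genes most like each of the 4, neighbours within 100 kb, markers and protamines. The p-values that 1 library per genotype cannot give are left out. Other settings tried were 1000 UMIs, 10% mitochondrial UMIs, doublets kept, separate clustering, TMM factors from edgeR 4.0.16, equal weight per cell, thinning, and other minimums.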

Additional observations from a re-analysis of the deposited data

How the results depend on the processing

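All 60 log2 ratios of the 4 genes recomputed under other settings kept their direction, 40 of them within the counting interval, and each gene stayed past 2-fold in spermatids under all 7 settings tried there. In spermatids Bloc1s6 moved to -4.41 with doublets kept and -4.38 with equal weight per cell, and Rabgef1 to -3.25 with separate clustering. TMM factors put Arf5 at 1.57 and Chmp5 at 1.06, and Chmp5 was 1.48 with separate clustering and 1.43 with cells thinned to 1500 UMIs. In all other cells Bloc1s6 moved to -0.79 with at least 1000 UMIs per cell, -1.15 with separate clustering, -1.68 with equal weight per cell and -0.78 with named classes only, a setting chosen after seeing the data. Rabgef1 moved to -2.22 with equal weight, -2.09 thinned and -2.14 with named classes only. Arf5 moved to 0.80 with separate clustering, 1.07 with equal weight, 1.01 thinned and 1.03 with named classes only, and Chmp5 to 0.55 with equal weight and 0.88 with named classes only. For Bloc1s6 and Arf5 outside spermatids these settings lie on both sides of 2-fold. The cause of these shifts was not tested. Genes 2-fold or more higher in spermatids numbered 76 of 3453 (2.2%). They numbered 287 of 8200 (3.5%) at a minimum of 10 CPM, 17 of 1133 (1.5%) at 200 CPM and 34 (0.985%) with TMM factors. Those lower numbered 25 (0.724%), against 81 (0.988%) at 10 CPM, 7 (0.618%) at 200 CPM and 37 (1.07%) with TMM factors. TMM factors move every log2 ratio by -0.20 in spermatids and -0.54 in elongating-spermatid-like cells. At 3000 UMIs all 8 shares of spermatids with a molecule were higher than at 1500. No paired analysis was possible because each genotype has 1 library.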
